A study of Mus musculus with 2 samples.

Results

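Heme synthesis and bilirubin formation were followed through 9 genes, the synthesis enzymes Alas1, Alas2, Alad, Uros, Urod, Cpox, Ppox and Fech and the biliverdin reductase Blvrb. They were chosen by name: each is a gene that a probe set of the deposited array table names alone. All 9 were found, with 1 probe set each (TC0900003004.mm.1 for Alas1 and TC0700000458.mm.1 for Blvrb, for example), among 30142 genes in all, and all 9 lay above the signal floor of 4.76 (log2, mean of both arrays) that 15023 genes passed. The liver came from untreated 3 month old PiZ mice, a C57BL/6 line whose transgene is the human ATZ gene (the Z mutant of alpha-1-antitrypsin) with its own promoter; both groups carry it, and liver without the transgene was not analysed here. Globule-containing areas hold inclusions of the mutant protein, seen in Cresyl Violet stained frozen sections, and globule-free areas do not show them. Each group was 1 array of laser-captured RNA pooled from 2 mice, so no difference here has a replicate check, no test was possible, and no gene has an error. The areas were cut by their look on the slide, and the sources used here do not say whether the same mice gave both pools.

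Heme is built from glycine and succinyl-coenzyme A by enzymes that lie partly in the mitochondrion and partly in the cytosol, and the first, 5-aminolevulinate synthase, sets the pace. In liver most new heme goes into cytochrome P450 enzymes, and heme in turn represses the housekeeping synthase ALAS1. Heme oxygenase opens the ring to biliverdin, a biliverdin reductase makes bilirubin, and the hepatocyte couples bilirubin to glucuronic acid and exports it into bile. In RefSeq, Alad and Urod lie on chromosome 4 and Uros and Blvrb on chromosome 7, and the other 5 genes lie on 5 different chromosomes.

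The promoters of 4 of these genes are shown because they belong to the genes furthest from equal on the arrays: the 2 synthases of the first step, which were lower in globule-containing areas, and Urod and Blvrb, which were higher. Each is the RefSeq window (GRCm38.p6) of 300 bases, from 250 before to 50 after the most upstream annotated gene start, 5′ to 3′ on the gene's strand, with motif matches in capitals.
Alas1, chr9:106247905-106248204, minus strand: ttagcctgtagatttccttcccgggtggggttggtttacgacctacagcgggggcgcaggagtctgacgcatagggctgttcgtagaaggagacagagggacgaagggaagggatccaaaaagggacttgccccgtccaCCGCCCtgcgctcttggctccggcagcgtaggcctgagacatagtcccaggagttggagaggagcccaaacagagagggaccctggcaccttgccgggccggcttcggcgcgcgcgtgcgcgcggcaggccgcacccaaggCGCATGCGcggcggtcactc
Alas2, chrX:150547167-150547466, plus strand: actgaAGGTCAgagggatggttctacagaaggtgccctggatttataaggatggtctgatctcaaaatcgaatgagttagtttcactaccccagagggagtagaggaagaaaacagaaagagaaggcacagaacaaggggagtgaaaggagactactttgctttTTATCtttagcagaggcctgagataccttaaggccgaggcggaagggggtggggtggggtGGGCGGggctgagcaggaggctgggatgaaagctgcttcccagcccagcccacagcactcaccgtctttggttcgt
Urod, chr4:116994364-116994663, minus strand: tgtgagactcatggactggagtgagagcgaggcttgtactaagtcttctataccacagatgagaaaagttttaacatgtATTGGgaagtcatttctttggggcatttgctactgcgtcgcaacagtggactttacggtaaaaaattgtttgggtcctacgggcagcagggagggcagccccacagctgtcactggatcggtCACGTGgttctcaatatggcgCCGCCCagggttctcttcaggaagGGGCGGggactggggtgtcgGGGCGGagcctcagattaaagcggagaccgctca
Blvrb, chr7:27447728-27448027, plus strand: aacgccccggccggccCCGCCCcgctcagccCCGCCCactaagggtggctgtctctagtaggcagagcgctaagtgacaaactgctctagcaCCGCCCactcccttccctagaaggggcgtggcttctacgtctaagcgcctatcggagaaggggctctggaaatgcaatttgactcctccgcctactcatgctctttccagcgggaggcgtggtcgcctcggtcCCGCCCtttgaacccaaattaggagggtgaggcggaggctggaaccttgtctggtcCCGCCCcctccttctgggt
The capitals mark 7 motifs searched on both strands, chosen after the values were seen: the core of the antioxidant response element (TGACNNNGC), the core of the nuclear respiratory factor 1 site (GCATGCG), the GATA core (GATAA), the CCAAT box (CCAAT), the E-box (CACGTG), the GC box (GGGCGG) and a nuclear receptor hexamer (AGGTCA). The factor 1 core matched on both strands in Alas1, and those matches overlap; no others do in these 4 windows. RefSeq windows of 8 of the 9 genes were searched. Fech was left out of the search, so the motif counts say nothing about it. Among those 8 first windows, the nuclear respiratory factor 1 core occurred only in Alas1, and 3.58% of 32851 promoter windows of this length hold it. The shares here are over all windows, later starts of a gene included, so they are not a like-for-like background for first windows. The GATA core occurred in Alas2 and Cpox (25.4% of all windows), the E-box in Alad, Urod and Uros (7.15%), and the CCAAT box in Alad, Ppox and Urod (37.4%). The GC box occurred in 7 of the 8 (35.7% of all windows), all except Cpox, and the hexamer only in Alas2 (16.3%). The antioxidant response element core was in none of the 8 (12.4% of all windows), and for Blvrb this says only that these letters are not in the window shown.

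Blvrb alone of the 9 genes passed 2-fold between the arrays, with the higher signal in globule-containing areas, and 0 of 9 were lower by that much. Over all genes above the floor, 6.47% were higher by 2-fold or more and 5.26% lower, and 1 of 9 is the smallest count above 0, so nothing about the pathway as a whole is read from it. Alas1 and Alas2, both forms of the first enzyme, and Fech, the last enzyme, had the lowest differences, while Urod had the highest among the synthesis enzymes. The median log2 difference of the 9 genes, globule-containing minus globule-free, was -0.20, and over all genes above the floor it was 0.05. The mean of the 9 was 0.02, of the opposite sign to the median. Of the 9 genes, 6 were below 0 and 3 above, beside 6832 below and 8188 above among the 15023 genes above the floor. With 2 arrays, no likeness of pattern between genes could be measured.

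**Figure D1:**
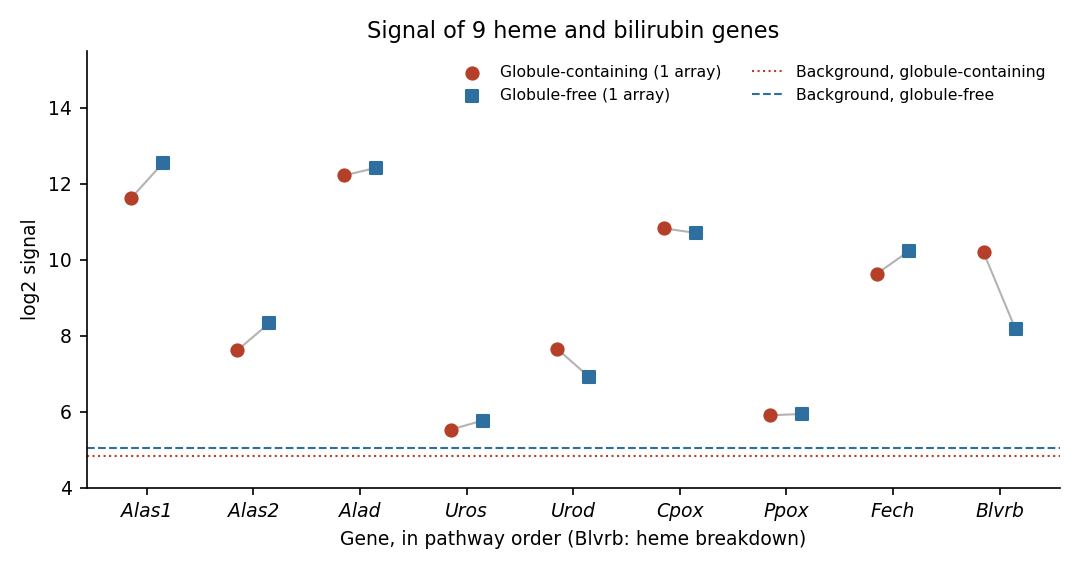
Log2 signal (vertical axis) of the 9 genes in pathway order (horizontal axis), with globule-containing areas as circles, globule-free areas as squares, 1 array each, and horizontal lines at the background of each array. Blvrb has the widest gap, 10.20 against 8.17, and every point lies above both background lines.

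Alas1, the housekeeping 5-aminolevulinate synthase of liver, gave 11.62 (log2 signal) in globule-containing areas and 12.54 in globule-free areas. It was thus 1.90-fold lower in globule-containing areas, a log2 difference of -0.93, just short of 2-fold. Of all genes above the floor, 6.17% had a lower difference. After a loess correction of the difference against signal it was -1.11, which is past 2-fold. Alas2, the erythroid synthase, had 7.62 in globule-containing areas and 8.34 in globule-free areas, a difference of -0.71 (1.64-fold lower). Both forms of the rate-limiting enzyme were therefore lower on the globule-containing array, neither by as much as 2-fold in the deposited values.

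Alas2 belongs to red cell precursors, and the arrays carried hemoglobin RNA. The 4 probe sets that name several alpha or beta globin genes had log2 signals of 12.83 to 17.89 in globule-containing areas and 12.36 to 17.61 in globule-free areas. All 4 were higher in globule-containing areas, by 0.28 to 0.79 on the log2 scale, the opposite direction to Alas2. Of 13 erythroid markers, 6 had a probe set naming them alone. Of these only Klf1, a red cell transcription factor, passed the floor, at 5.25 in globule-containing areas and 5.07 in globule-free areas. Both Klf1 values lay near background, which was 4.85 (globule-containing) and 5.04 (globule-free). Gata1, the erythroid factor that drives Alas2, was below background on both arrays, at 4.35 in globule-containing areas and 4.44 in globule-free areas. What part red cell RNA has in the Alas2 value was not tested. In pooled tissue such as this, fewer cells of a type and less RNA per cell cannot be told apart.

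Of the 3 cytosolic synthesis enzymes, Alad and Uros were slightly lower and Urod was higher in globule-containing areas. Alad, the dehydratase that joins a pair of aminolevulinate molecules into porphobilinogen, had 12.22 in globule-containing areas and 12.42 in globule-free areas, a difference of -0.20. Uros, which closes the ring to uroporphyrinogen III, had 5.53 in globule-containing areas and 5.77 in globule-free areas, a difference of -0.24, on signals only 0.68 (globule-containing) and 0.74 (globule-free) above background. Urod, the decarboxylase that turns uroporphyrinogen into coproporphyrinogen, had 7.65 in globule-containing areas and 6.92 in globule-free areas. That is 1.67-fold higher in globule-containing areas, a difference of 0.74 that 11.4% of all genes above the floor exceeded.

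The last 3 enzymes act in the mitochondrion. Cpox, coproporphyrinogen oxidase, had 10.83 in globule-containing areas and 10.71 in globule-free areas, a difference of 0.12 that was -0.004 after loess correction. Ppox, protoporphyrinogen oxidase, had 5.91 in globule-containing areas and 5.94 in globule-free areas, with the smallest deposited difference of the 9, -0.04. Fech, ferrochelatase, which inserts iron into protoporphyrin, had 9.64 in globule-containing areas and 10.23 in globule-free areas, and was 1.51-fold lower at a difference of -0.59. The 5 mitochondrial enzymes had a median difference of -0.59 and the 3 cytosolic synthesis enzymes one of -0.20, and the ranges overlapped, from -0.93 to 0.12 in the mitochondrion and from -0.24 to 0.74 in the cytosol. At a threshold of 1.5-fold, 2 of the 9 genes were higher (Urod and Blvrb) and 3 lower (Alas1, Alas2 and Fech), beside 16.0% and 11.9% of all genes above the floor. Taking all 8 synthesis enzymes, 6 were lower and 2 higher on the globule-containing array, and the median was -0.22. The lower ones include small differences, Ppox at -0.04 and Alad at -0.20 among them. Of the 15023 genes above the floor, 6832 were lower and 8188 higher.

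Blvrb, biliverdin reductase B, is a cytosolic enzyme that reduces biliverdin IX beta and flavins and is abundant in red cells and liver. It gave 10.20 (log2 signal) in globule-containing areas and 8.17 in globule-free areas, both far above background. The signal was 4.06-fold higher in globule-containing areas, a log2 difference of 2.02, and 1.38% of all genes above the floor had a higher one. At a threshold of 4-fold, which 1.42% of all genes passed upward and 1.32% downward, Blvrb was the only 1 of the 9 past it, and only in the deposited scaling: its log2 difference was 1.98 after median centring, 1.95 after quantile normalization and 1.94 after loess correction, all just under 4-fold. Blvra, the reductase of biliverdin IX alpha and so of most bilirubin in the adult, had 5.88 in globule-containing areas and 6.21 in globule-free areas, a difference of -0.33. The 2 biliverdin reductases thus lay on opposite sides of 0. The Blvra signals were low, beside backgrounds of 4.85 (globule-containing) and 5.04 (globule-free), which limits what can be read from its difference.

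Markers of other cells differed between the same arrays, in both directions. Among 11 macrophage markers, 5 were higher and 5 lower by 2-fold or more on the globule-containing array, and the median log2 difference was 0.12. The higher ones with the largest differences were Lyz2 (5.34), Ctss (5.08), Cd68 (3.73) and Tyrobp (3.63). The lower ones were Clec4f (-3.05), Cd5l (-2.68), Vsig4 (-2.44), Timd4 (-1.98) and Marco (-1.54), chosen after their values were seen. All 7 stellate cell and fibroblast markers above the floor were higher by 2-fold or more, led by Lum (3.92), Lrat (3.46), Dcn (3.42) and Col3a1 (2.43), and Des was below the floor. Of 5 neutrophil markers, S100a8 (5.92) and S100a9 (4.54) were higher by 2-fold or more, Ly6g differed by 0.27, and Mpo and Ngp lay below the floor. The 6 endothelial markers, among them Clec4g (0.61) and Stab2 (-0.13), lay within 2-fold, as did the 3 cholangiocyte markers above the floor, among them Sox9 (0.24) and Epcam (0.96, with a globule-free signal at background). The hepatocyte markers Alb and Ttr were at or near the ceiling of both arrays, so the defining markers of the labelled cell type were present. A signal at the ceiling cannot show whether the 2 captures held equal shares of hepatocyte RNA. Of the 6 hepatocyte markers, Tat and Cps1 were lower by 2-fold or more on the globule-containing array and none was higher by that much. The median difference of the 6 was -0.77, with 5 below 0 and 1 above. The part of these cells in the Blvrb, Urod or synthase values was not tested.

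Zonation markers differed too. The 3 periportal hepatocyte markers named alone on the array, Hal, Cyp2f2 and Pck1, were each lower by 2-fold or more on the globule-containing array, with a median difference of -2.72. The 6 pericentral markers had a median of 0.31 and all lay within 2-fold, 4 above 0 and 2 below. Cyp1a2 (0.96) and Cyp2e1 (0.12) were higher, as were Lgr5 (0.81) and Axin2 (0.50), both at background in globule-free areas. Oat (-0.88) and Slc1a2 (-0.16) were lower. Whether the position of the areas in the lobule has a part in the differences of the heme genes was not tested.

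**Figure D2:**
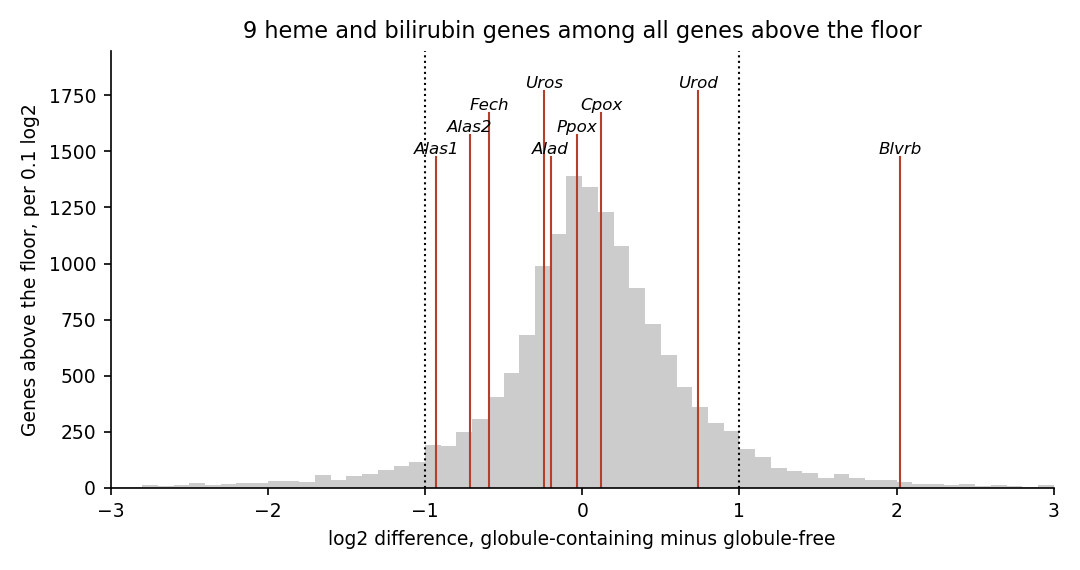
Number of genes above the floor per 0.1 log2 (vertical axis) against the log2 difference, globule-containing minus globule-free (horizontal axis), with the 9 genes as lines and 2-fold as dotted lines; 62 genes below -3 and 81 at or above 3 lie outside the axis. Only Blvrb, at 2.02, lies beyond a dotted line, and Alas1, at -0.93, is the nearest on the lower side.

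The wider pathway was described with 6 lists of other heme and bilirubin genes, 110 in all, of which 95 had a probe set naming them alone and 90 passed the floor. Of these 90 genes, 9 were higher and 9 lower by 2-fold or more, with a median difference of -0.03; 6.47% and 5.26% of all genes were so. The lists were drawn up with earlier results of these arrays known, and nothing is called particular to them.

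Of 12 other genes of heme synthesis above the floor, 1 was higher and 1 lower by 2-fold or more (all genes: 6.47% and 5.26%). The median was -0.06. Clpp, the peptidase partner of the ClpX unfoldase that acts on aminolevulinate synthase, had 9.21 in globule-containing areas and 7.63 in globule-free areas, and was 2.98-fold higher. Clpx, which encodes the unfoldase and is named after its value was seen, had 10.11 in globule-containing areas and 10.38 in globule-free areas. Its difference was -0.27, the opposite direction to Clpp. Lonp1, a mitochondrial protease that degrades ALAS1 when heme is plentiful, is given after its value was seen: it had 8.85 in globule-containing areas and 7.85 in globule-free areas, a difference of 0.998. Tmem14c, a mitochondrial membrane protein needed for protoporphyrinogen import, had 9.13 in globule-containing areas and 10.53 in globule-free areas, and was 2.63-fold lower. Pgrmc1, a heme-binding membrane protein that contacts ferrochelatase, had 17.42 in globule-containing areas and 16.71 in globule-free areas, and Glrx5, an iron-sulfur assembly factor, 13.37 in globule-containing areas and 13.26 in globule-free areas, both within 2-fold.

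Mitochondrial iron and porphyrin transport had 15 listed genes above the floor, with a median of 0.17. Of these, 2 were higher by 2-fold or more and none lower, beside 6.47% and 5.26% of all genes. Neither of those 2 is a mitochondrial carrier of iron or porphyrin. Slc48a1, the heme transporter HRG1 of the lysosome membrane, had 10.90 in globule-containing areas and 9.35 in globule-free areas, and was 2.92-fold higher. Slc7a11, which imports cystine and does not itself carry iron or porphyrin, had 9.27 in globule-containing areas and a globule-free signal at background, which gives at least 18.9-fold. Slc25a39, a mitochondrial carrier of glutathione, had 10.65 in globule-containing areas and 9.98 in globule-free areas, within 2-fold.

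Of 13 genes of heme breakdown and bilirubin disposal above the floor, 3 were higher and 1 lower by 2-fold or more. The shares over all genes were 6.47% and 5.26%, and the list median was 0.16. Hmox1, the inducible heme oxygenase, had 9.77 in globule-containing areas and 8.95 in globule-free areas, and was 1.76-fold higher, and Hmox2, the constitutive form, had 7.63 in globule-containing areas and 7.66 in globule-free areas. Gsta2, a glutathione transferase of the family that binds bilirubin in the hepatocyte, had 15.97 in globule-containing areas and 14.37 in globule-free areas, and was 3.05-fold higher; Gsta genes are alike and can share hybridisation. Abcc3, the basolateral exporter of conjugated bilirubin, had 10.85 in globule-containing areas and 8.96 in globule-free areas, and was 3.69-fold higher. Abcc2, the canalicular exporter that sends conjugated bilirubin into bile, had 15.24 in globule-containing areas and 15.25 in globule-free areas, a difference of -0.01. The 2 export routes therefore differed by unequal amounts, with Abcc3 among the higher genes and Abcc2 level.

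Ugp2, which makes UDP-glucose for glucuronidation, had 14.52 in globule-containing areas and 13.45 in globule-free areas, and was 2.10-fold higher. Slco1a1, an organic anion importer, had 14.79 in globule-containing areas and 16.18 in globule-free areas, and was 2.61-fold lower, whereas Slco1b2, the bilirubin-carrying importer of the same family, had 16.61 in globule-containing areas and 16.31 in globule-free areas. Fabp1, a fatty acid binding protein that also binds heme, had 19.67 in globule-containing areas and 19.79 in globule-free areas and lay near the ceiling. Ugt1a1, the transferase that couples bilirubin to glucuronic acid, was not analysed here.

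Of 21 regulators of heme synthesis above the floor, 1 was higher and 4 lower by 2-fold or more (all genes: 6.47% and 5.26%). The median was -0.33. Ppargc1a, the fasting coactivator that induces Alas1 together with nuclear respiratory factor 1 and FOXO1, had 7.03 in globule-containing areas and 9.07 in globule-free areas, a difference of -2.04. Foxo1, named after its value was seen, was level, at 10.26 in globule-containing areas and 10.28 in globule-free areas. Nr1i3, the xenobiotic receptor CAR that also induces Alas1, had 8.65 in globule-containing areas and 10.16 in globule-free areas, and was 2.84-fold lower. Aco1 and Ireb2, the iron regulatory proteins that repress Alas2 translation, were 2.00-fold and 2.39-fold lower. Nfe2l2, which encodes NRF2, a driver of Hmox1, had 11.31 in globule-containing areas and 9.997 in globule-free areas, and was 2.49-fold higher. Cebpa, a hepatocyte factor, had 12.34 in globule-containing areas and 12.95 in globule-free areas. Nrf1, which encodes nuclear respiratory factor 1 and was chosen after its value was seen, had 5.15 in globule-containing areas and 4.92 in globule-free areas, the second at background.

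Of 20 heme-binding proteins above the floor, 2 were higher and 2 lower by 2-fold or more (all genes: 6.47% and 5.26%). The median was -0.18. Tdo2, the heme enzyme that opens tryptophan, had 16.00 in globule-containing areas and 17.83 in globule-free areas, and was 3.54-fold lower. Cyp2f2, a cytochrome P450 of periportal hepatocytes, had 15.89 in globule-containing areas and 18.20 in globule-free areas, 4.96-fold lower. Cygb, the globin of stellate cells, had 9.31 in globule-containing areas and 7.48 in globule-free areas, and was 3.57-fold higher, and Gucy1b1, the heme subunit of soluble guanylate cyclase, had 6.86 in globule-containing areas and 5.44 in globule-free areas, 2.68-fold higher. Stellate cell markers were higher on the same array, as given above, and their part in the Cygb and Gucy1b1 values was not tested. The P450 enzymes Cyp2e1 (18.97 in globule-containing areas, 18.85 in globule-free areas) and Cyp3a11 (19.11 and 19.02 in the same order) both lay within 2-fold.

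Of 9 genes of plasma heme and hemoglobin scavenging above the floor, Lrp1, the receptor for heme-hemopexin, was 2.22-fold lower, at 10.76 in globule-containing areas and 11.91 in globule-free areas. Lrp1 was the only gene of this list at least 2-fold apart, beside 6.47% (higher) and 5.26% (lower) of all genes. Hpx, hemopexin, had 19.56 in globule-containing areas and 19.43 in globule-free areas, and the Alb signal was saturated in both groups. Cd163, the macrophage receptor for haptoglobin-hemoglobin, lay below the floor.

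**Figure D3:**
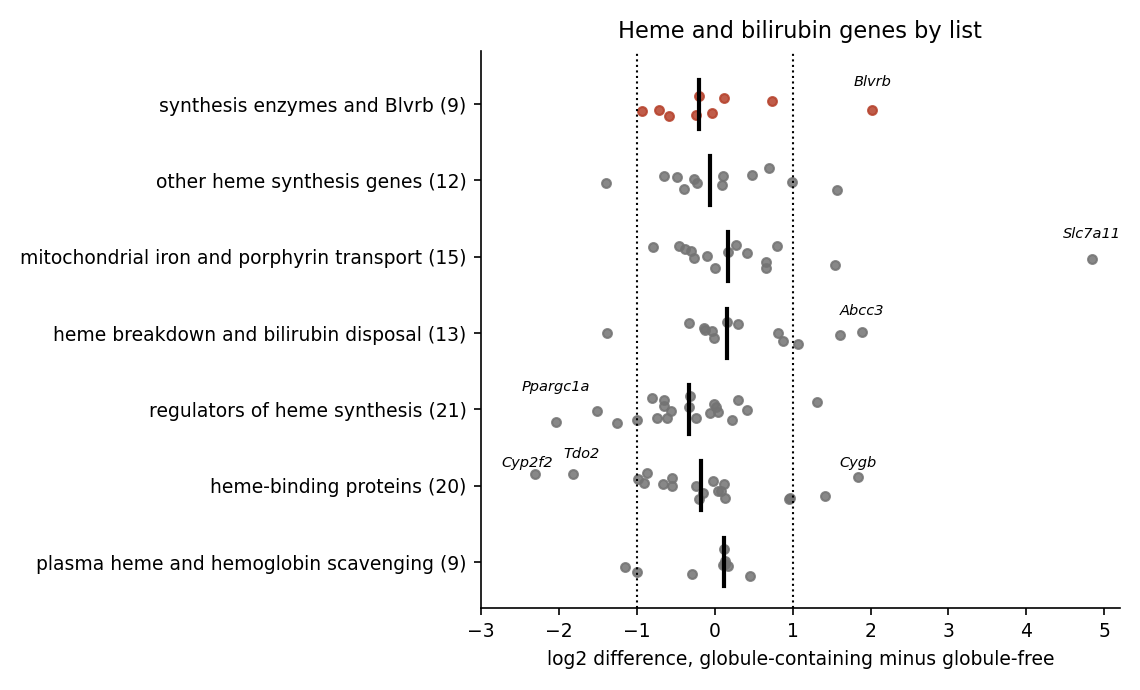
Log2 difference, globule-containing minus globule-free (horizontal axis), of each gene above the floor, by list (vertical axis, number of genes in brackets); each point is 1 gene, bars are list medians and dotted lines mark 2-fold. The list medians run from -0.33 for regulators of heme synthesis to 0.17 for iron and porphyrin transport, and single genes spread well beyond them.

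**Figure D4:**
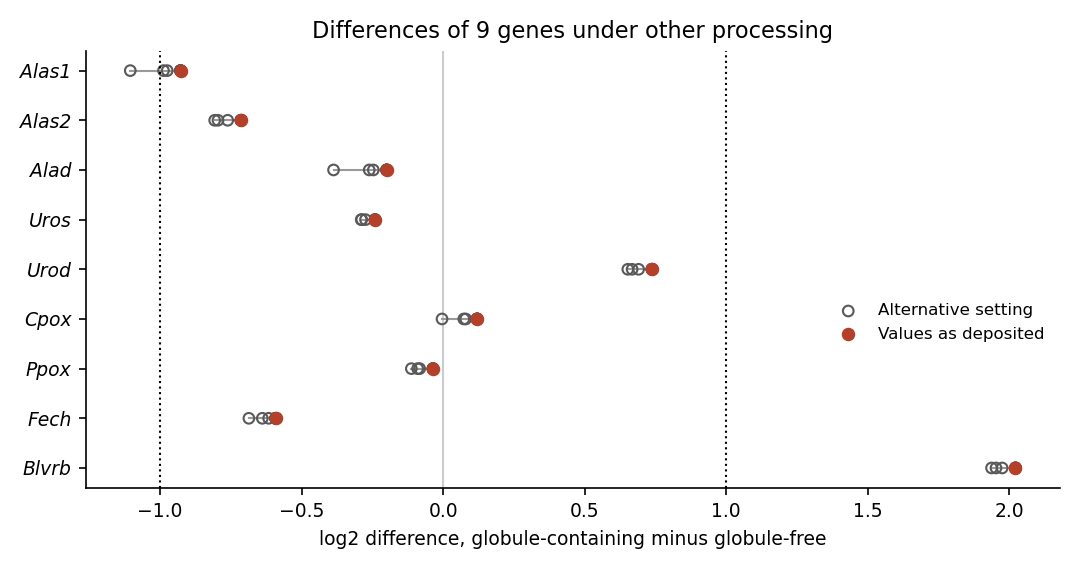
Log2 difference, globule-containing minus globule-free (horizontal axis), of the 9 genes (vertical axis), as deposited (filled) and under the other settings (open), with 2-fold dotted. Alas1 crosses the lower dotted line only after loess correction, at -1.11, and Blvrb stays between 1.94 and 2.02.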

How the data were processed

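RNA from 2 laser-captured pools was amplified from 50 ng and hybridised, 1 array per group, per the labels' protocols. The deposited table holds log2 signals for 72688 probe sets, with the scale read from the values. The Transcriptome Analysis Console was used, per the submitters' processing notes. How the background was corrected, how the arrays were normalized and which build was used is not given here. Probe sets naming 1 gene (30604 of 32750 with a listed gene; 2146 name several) were averaged per gene, and symbols updated to RefSeq (GRCm38.p6) through Entrez IDs (22818 matched). The floor was the median signal of these probe sets. Background was set from 1721 probe sets of olfactory and vomeronasal receptors, at their 95th percentile, 4.85 (globule-containing) and 5.04 (globule-free), and values within 0.2 of an array's maximum were taken as its ceiling. A fold against a background signal is a lower bound, taken from the background level.

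Members and lists were chosen with earlier results of these data known. All 9 genes are named, and of each other list the genes at least 2-fold apart (at most 4), the 2 with the highest signal, and Hmox1, Hmox2, Blvra, Ugt1a1, Abcc2 and Nfe2l2 where measured; 1 further gene of the rule is not reported here. With 1 array per group no test, SD or p-value exists; arrays give no read depth. Counting and scaling were tested on simulated data. Python 3.11.15, numpy 2.4.6, pandas 2.3.3, statsmodels 0.14.6 and matplotlib 3.10.9 were used.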

Additional observations from a re-analysis of the deposited data

How the results depend on the processing

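No paired analysis was possible because each group is 1 array. With no replicate spread, a log2 difference was taken to have moved when it changed by more than 0.17. That is the median gap between the log2 differences of 2 probe sets of 1 gene (177 genes). A count was taken to have moved when it changed by more than 1.5-fold, or from 0. Alternatives were other scalings (median, quantile, loess), floors, probe set rules, dim values raised to background and other thresholds. The count of the 9 genes at least 2-fold lower was 1 (Alas1) after loess correction, with Alas1 at -1.11 and Alad at -0.39. Over all genes above the floor, 6.40% were lower by 2-fold or more after this correction, against 5.26% as deposited. At a threshold of 1.5-fold, 2 genes were higher (Urod and Blvrb) and 3 lower (Alas1, Alas2 and Fech), where 16.0% and 11.9% of all genes passed. Of the 90 other heme and bilirubin genes above the floor, 39 were apart at 1.5-fold and 3 at 4-fold, against 18 at 2-fold. Of all genes, 1.42% were higher and 1.32% lower at 4-fold, and 6.47% and 5.26% at 2-fold. The median difference of the 9 genes lay between -0.27 and -0.20 under all settings. Cpox changed sign after loess correction, within 0.17 of its deposited difference. Uros and Ppox dropped out at the floor of the 75th percentile. Their low signals, less than 1.1 above background, limit what can be read from both.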
